A study of Mus musculus with 16 samples.

Results

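The comparison described here is between cultured mouse macrophages labelled as lacking the transcription factor FOXO3 and wild-type macrophages, both treated with vehicle. Its members are 8 of the 16 RNA-sequencing libraries of the series, chosen by their labels: 4 libraries of genotype FOXO3-/- and 4 of wild type, all of strain FVB/N, and all given DMSO as the vehicle for 24 h before RNA isolation. The other 8 libraries, 4 per genotype, were given 100 nM dexamethasone, a synthetic glucocorticoid, for 24 h. All 16 were bone marrow-derived macrophages, grown from total marrow for 5 to 7 days in medium with L929-conditioned supernatant, a source of the macrophage growth factor M-CSF made by a fibroblast line. The labels give neither the part of Foxo3 that was removed nor whether replicates came from separate mice or cultures. The p-values therefore rest on library-to-library spread that may not include the spread between mice. Per its title, the series asks how FOXO3 bears on glucocorticoid receptor signalling. The vehicle comparison shows how the genotypes differed without added dexamethasone.

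FOXO3 is a forkhead transcription factor that insulin and growth factor signalling keeps out of the nucleus through the kinase AKT. In the nucleus it binds the sequence GTAAACA and is known for activating genes of cell cycle arrest, insulin receptor signalling, antioxidant defence and autophagy. In macrophages, whose survival depends on M-CSF signalling through the same kinase, FOXO factors are studied for their part in survival, inflammatory genes and the recycling of iron.

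Foxo3 RNA (ENSMUSG00000048756, chr10:42181841-42276755, GRCm38) stood at 26.02, 26.4, 23.6 and 22.9 FPKM (depth-scaled fragments per kilobase of a gene's exons) in wild-type libraries 1 to 4 and at 24.7, 23.7, 23.2 and 23.6 FPKM in knockout libraries 1 to 4. The groups overlapped, with means of 24.7 ± 1.72 and 23.8 ± 0.635 FPKM (SD, n = 4 each; exact permutation test over 70 splits, two-sided p = 0.371, smallest possible 0.0286). Whole-gene FPKM does not show a deleted part, so Foxo3 neither checks the labels nor goes against them, and "knockout" below means a library labelled FOXO3-/-. Related factors were measured too: Foxo1 was at 2.28 ± 0.152 and 2.27 ± 0.142 FPKM and Foxo4 at 14.1 ± 0.613 and 11.9 ± 0.95 FPKM in wild type and knockout, neither past the test (adjusted p = 0.975 and 0.125).

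Depth was even across the 8 libraries, with 18296232 to 20584573 reads on genes as recovered from the FPKM values. By the depth that scales the FPKM values, 1 FPKM of a 2 kb gene rested on 32.9 to 38.6 reads. Macrophage markers were high in each library: Csf1r, the M-CSF receptor, lay between 488 and 757 FPKM, Lyz2 between 9798 and 11897 FPKM and Cd68 between 994 and 1449 FPKM. Of 13 neutrophil genes, Ly6g was listed at 0 and 9, Ly6g among them, stayed under 1 FPKM in the 8 libraries, S100a8 reached 3.73 FPKM, and the list summed to 30.9 to 35.2 FPKM in wild type and 24.3 to 33.2 FPKM in knockout. Of 10 genes of red cell precursors 7 were listed at 0, Hba-a1 and Hbb-bs among them, and the list summed to at most 2.57 FPKM. Fibroblast RNA was present in unequal amounts. The collagen score, the mean log2(FPKM + 1) of Col1a1, Col1a2 and Col3a1, was 6.73, 6.75, 2.76 and 6.83 in wild-type libraries 1 to 4 and 2.25, 0.59, 0.41 and 6.36 in knockout libraries 1 to 4. Wild-type library 3 and knockout library 4 thus stood apart from the other 3 of their group, and each result was also computed with this score as a covariate and with each library left out. In bulk RNA, fewer cells of a type and less RNA per cell cannot be told apart.

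Of 11654 genes tested, 545 differed between the genotypes (4.68%; limma on log2(FPKM + 1), Benjamini-Hochberg adjusted p under 0.05), 393 higher in knockout (3.37%) and 152 lower (1.3%). The fit uses all 16 libraries for the filter and the spread, and with the 8 vehicle libraries alone 244 genes passed, 165 higher and 79 lower. With FPKM scaled by median ratios, 60.4% of the calls were higher in knockout, against 72.1% without it, while the median log2 difference over all genes was 0.04 without it. A log2 difference of at least 1 was reached by 79 genes (0.678%), 43 higher and 36 lower. With the collagen score as covariate, 337 of 11651 genes passed (2.89%; 177 or 1.52% higher and 160 or 1.37% lower), and 223 passed in both fits in the same direction (1.91%), 133 higher and 90 lower. The 4 values of one genotype lay wholly apart from those of the other for 1239 of the genes tested (10.6%), 893 higher in knockout (7.66%) and 346 lower (2.97%), which is the background for each gene whose groups are said below not to overlap. Of the 79 larger changes, 64 passed in both fits. The number of calls moved strongly with single libraries: it was 1623 without wild-type library 3, 1285 without knockout library 4, and 278 to 347 when any of the other 6 was left out. Of the 545 genes, 237 passed with each library left out in turn, among them 65 of the 79 larger changes and 191 of the 223 genes called with and without the covariate.

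The fit with the covariate also gives each gene a slope on the collagen score within groups. A positive slope marks RNA that was higher in libraries rich in collagen RNA, and it was found for 1408 genes beside the 3 of the score, of which 18 were called in vehicle. A negative slope was found for 1769 genes, of which 112 were called, 106 higher and 6 lower in knockout. The other 415 called genes had no slope past the threshold, 283 higher and 132 lower.

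**Figure D1:**
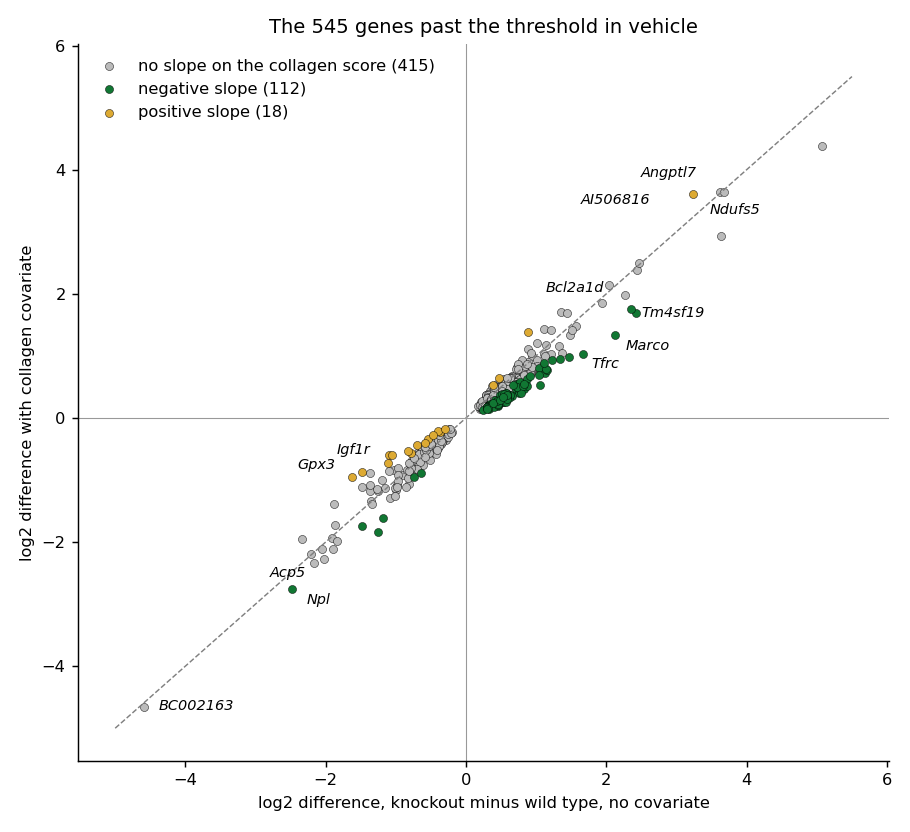
Log2 difference between knockout and wild type in vehicle for the 545 called genes, without the collagen score as covariate (x axis) and with it (y axis); the dashed line marks equal values and colours the slope on the score. Of the 112 genes with a negative slope (green), the 106 higher in knockout moved toward 0 with the covariate and the 6 lower moved away from it. The direction of these shifts is fixed by the slope and the lower mean score of the knockout libraries, and is no separate result. Angptl7, Ndufs5, BC002163, Npl and Acp5 lie close to the line.

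Among the genes named by rule, the steepest changes came from a gene and its near-identical copy. Ndufs5 (chr4:123712710-123718202, minus strand), an accessory subunit of respiratory complex I, was at 2.36, 2.7, 2.02 and 2.05 FPKM in wild type and at 40.6, 46.3, 40.8 and 36.8 FPKM in knockout, a log2 rise of 3.68 ± 0.12 (SE, adjusted p = 4.76e-11). BC002163 (chr16:42955631-42955949), annotated as a processed pseudogene, was at 69.98, 71.6, 81.7 and 68.0 FPKM in wild type and 1.82, 1.14, 2.71 and 2.92 FPKM in knockout, a log2 fall of 4.59 ± 0.20 (adjusted p = 2.9e-09). Each gene's groups lay far apart, in opposite directions. The sequences are shown because they carry the difficulty: the 60 coding bases 61 to 120, counted from the A of the start codon, hold the 2 bases (capitals) at which the aligned copies differ, T81C and A105G, with the Ndufs5 base first.
Ndufs5: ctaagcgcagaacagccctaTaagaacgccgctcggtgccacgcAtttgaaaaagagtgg
BC002163: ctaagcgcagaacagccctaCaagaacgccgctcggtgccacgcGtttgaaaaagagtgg
The copies align over 319 bases, the whole of BC002163 and part of the 860 exon bases of Ndufs5. Within that stretch a read that covers neither base cannot be assigned to one locus, so both values are uncertain. In knockout, reads recovered from FPKM were more at Ndufs5 and fewer at BC002163, and the sum of both came to 25.2 ± 1.87 CPM (recovered reads scaled to depth) in wild type and 36.1 ± 3.13 in knockout (SD, n = 4 each). Of the 41 complex I genes tested, Ndufs5 and Ndufc2 rose and none fell (4.88%, near the 4.68% of all genes; median log2 difference 0.10). Ndufc2 was at 55.9 ± 5.37 and 72.4 ± 4.33 FPKM (log2 0.37 ± 0.09, adjusted p = 0.026), and the covariate ended that call (adjusted p = 0.123), as did leaving out knockout library 2 or 3 or wild-type library 1, 2 or 4 (adjusted p = 0.0593 to 0.0956). The count of risen genes was 1 in each of those cases, 4 without knockout library 4 and 5 without wild-type library 3.

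The same uncertainty holds for the Bcl2a1 family, copies of the BCL2-related survival factor A1 on chromosome 9. Bcl2a1d rose from 2.03, 2.19, 4.03 and 2.67 FPKM to 19.9, 19.2, 18.6 and 10.4 FPKM (log2 2.26 ± 0.21, adjusted p = 1.66e-05), while Bcl2a1b fell from 15.6, 11.4, 14.2 and 15.4 FPKM to 8.74, 7.24, 5.71 and 5.2 FPKM (log2 -0.99 ± 0.14, adjusted p = 0.000723). Groups did not overlap for either gene. The aligned transcripts are identical at 810 of 817 bases for Bcl2a1b and Bcl2a1d and at 809 of 819 for Bcl2a1a and Bcl2a1d. Summed over Bcl2a1a, Bcl2a1b and Bcl2a1d, the family had 17.5 ± 2.40 CPM in wild type and 21.7 ± 4.84 in knockout, and these sums overlapped.

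Angptl7, which encodes a secreted angiopoietin-like protein, went from a trace to a clear signal. It was at 0.392, 0.376, 0.242 and 0.394 FPKM in wild type and at 16.4, 13.3, 16.3 and 16.7 FPKM in knockout (log2 3.62 ± 0.10, adjusted p = 1.02e-11). This was the largest log2 rise among the genes named by rule apart from that of Ndufs5. The gene (chr4:148495183-148500460) lies within Mtor on the opposite strand, and whether counting used the strand is not stated by the labels or notes. Mtor itself was at 7.29 ± 0.329 and 6.91 ± 0.518 FPKM (adjusted p = 0.592).

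Among the largest rises with no slope on the collagen score, receptors and other proteins of the cell surface recurred. Siglece, an inhibitory lectin that binds sialic acid, was at 2.1, 2.57, 3.32 and 2.6 FPKM in wild type and 12.3, 9.4, 17.5 and 13.4 FPKM in knockout (log2 1.93 ± 0.20, adjusted p = 5.95e-05). Knockout library 3 was highest, and no knockout library came near the wild-type range. Cd55, an inhibitor of complement activation on the cell surface, stood at 1.64, 1.94, 2.36 and 1.64 FPKM and at 6.72, 4.97, 8.73 and 8.16 FPKM (log2 1.48 ± 0.17, adjusted p = 0.000147). Fcrls, a scavenger receptor related to Fc receptors, stood at 79.6, 97.0, 84.5 and 79.0 FPKM and at 207, 163, 247 and 345 FPKM (log2 1.44 ± 0.18, adjusted p = 0.000342). Cd72, an inhibitory receptor of the C-type lectin fold, stood at 20.9, 17.2, 25.2 and 14.7 FPKM and at 48.8, 48.9, 49.8 and 50.1 FPKM (log2 1.32 ± 0.18, adjusted p = 0.000716). Its knockout values were nearly equal, with an SD of 0.64 FPKM. Itgal, the alpha chain of the integrin LFA-1, rose from 5.61 ± 1.46 to 14.4 ± 4.08 FPKM (log2 1.21 ± 0.21, adjusted p = 0.00355). With the covariate these 5 genes passed too, at log2 differences of 1.84, 1.34, 1.69, 1.16 and 1.41 in the order named, and with each library left out.

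Fgl2, a secreted and membrane-bound fibrinogen-like protein, rose from 15.1, 20.9, 25.8 and 28.3 FPKM to 59.7, 50.05, 73.1 and 53.2 FPKM (log2 1.37 ± 0.27, adjusted p = 0.00982), but not with the covariate (1.05, adjusted p = 0.0668). Pf4, the chemokine CXCL4, rose from 43.2 ± 9.25 to 102 ± 25.1 FPKM (log2 1.21 ± 0.23, adjusted p = 0.00785; 0.0496 with the covariate). The lectin gene Cd209f went from 1.43 ± 0.357 to 6.02 ± 4.6 FPKM, with 12.8 FPKM in knockout library 4 and 3.01 to 4.69 FPKM in the other 3 (log2 1.35 ± 0.29, adjusted p = 0.0153), and did not pass without wild-type library 4 (adjusted p = 0.052). The microRNA gene Mir7001, which lies within Cd82, was listed at 0 in wild type and at 2.2, 0.764, 3.64 and 1.97 FPKM in knockout (adjusted p = 0.0219), and that call was lost with the covariate (adjusted p = 0.0855) and without knockout library 1 or 3 or wild-type library 1, 2 or 4 (0.0593 to 0.0804).

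**Figure D2:**
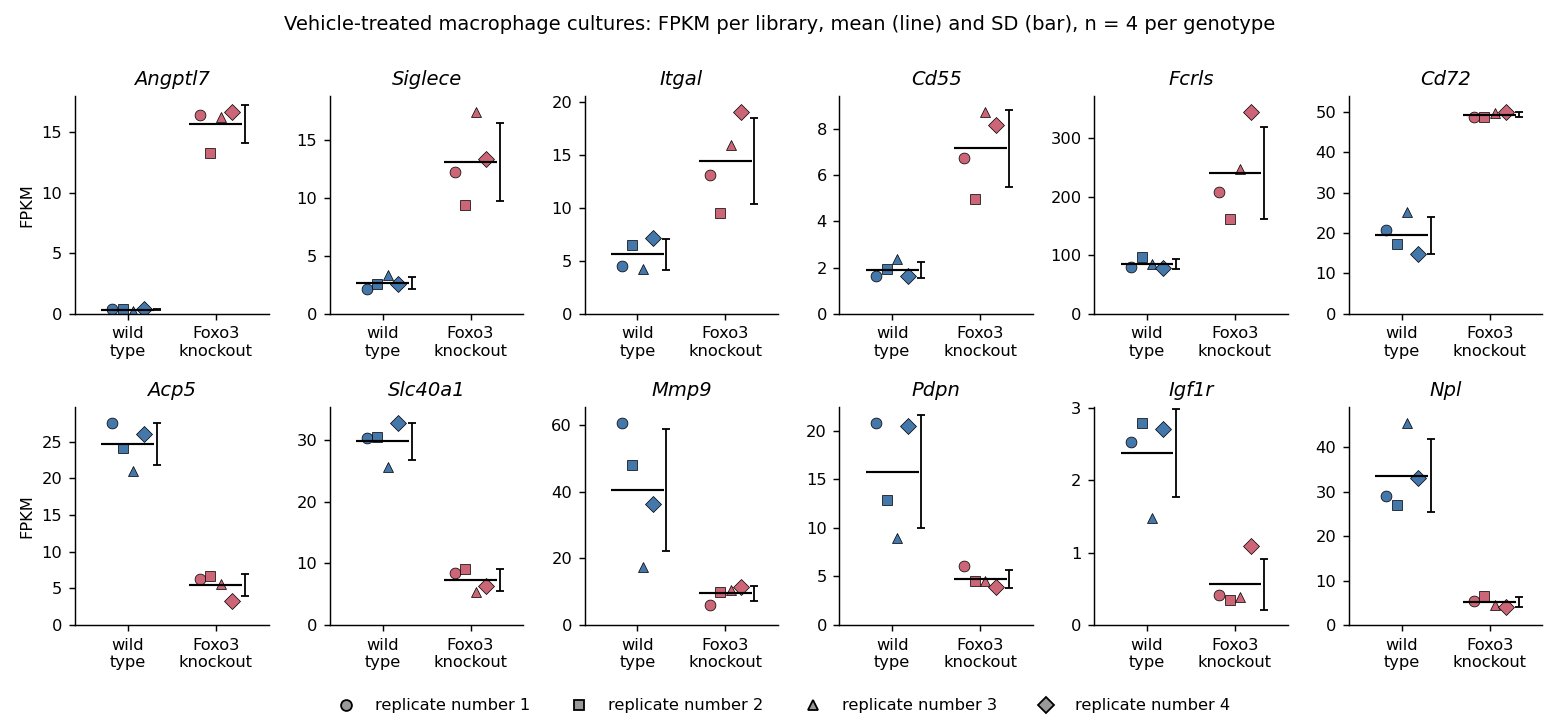
FPKM per library (y axis, linear from 0) of 12 genes in vehicle, wild type in blue and Foxo3 knockout in red, with the replicate number as symbol, the mean as a line and the SD as a bar (n = 4 per genotype). The upper row rose and the lower row fell, and the genotypes do not overlap in any panel. Wild-type library 3 (triangles) is the wild-type library nearest to the knockout in panels that include Siglece, Cd55, Cd72, Acp5, Slc40a1, Mmp9, Pdpn and Igf1r. It is the farthest for Angptl7 and Npl.

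The genes of the iron exporter and an osteoclast enzyme were among the larger falls, and Npl and Fblim1, given below, fell further. Slc40a1 encodes ferroportin, the only known exporter of iron from macrophages, and was at 30.3, 30.5, 25.6 and 32.8 FPKM in wild type and 8.39, 9.15, 5.37 and 6.39 FPKM in knockout (log2 -1.91 ± 0.20, adjusted p = 4.69e-05; -1.93 with the covariate). The knockout values were all below the lowest wild-type value by more than the range within either group. Of 23 genes for iron and haem handling, 3 rose and 1 fell (17.4% called, against 4.68% of all genes; median log2 difference 0.00), and the number that rose was 5 without knockout library 4 or without wild-type library 3. Tfrc, the transferrin receptor that brings iron in, was at 51.2, 55.5, 116 and 67.8 FPKM in wild type and 314, 255, 284 and 102 FPKM in knockout (log2 1.66 ± 0.31, adjusted p = 0.00693; 1.03 and 0.0169 with the covariate). Here the groups overlapped, since wild-type library 3 and knockout library 4, the pair that stood apart in collagen RNA, crossed over. Slc11a2, the divalent metal transporter, rose from 23.3 ± 1.96 to 31.4 ± 3.02 FPKM (log2 0.42 ± 0.08, adjusted p = 0.0101; 0.055 with the covariate). The iron chaperone Pcbp2 rose from 28.1 ± 1.04 to 33.3 ± 0.941 FPKM (log2 0.24 ± 0.06, adjusted p = 0.039; 0.27 with the covariate), a call also lost in 6 of 8 omissions, all but those of wild-type library 3 and knockout library 4 (0.0941 to 0.122). Slc11a1, the phagosomal metal transporter, was at 146 ± 12.2 and 146 ± 9.03 FPKM (adjusted p = 0.989).

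Acp5, the tartrate-resistant acid phosphatase used as an osteoclast marker, was at 27.6, 24.1, 21.0 and 26.1 FPKM in wild type and 6.23, 6.63, 5.53 and 3.29 FPKM in knockout (log2 -2.03 ± 0.17, adjusted p = 4.49e-06; -2.27 with the covariate). The gelatinase gene Mmp9 was at 60.6, 47.9, 17.4 and 36.2 FPKM against 6.15, 9.89, 10.6 and 11.4 FPKM (log2 -1.88 ± 0.36, adjusted p = 0.00723; -1.39 and 0.0494 with the covariate). Both genes had separate groups, and wild-type library 3 was the lowest of its group for each. Of 17 osteoclast genes tested, these 2 fell and 1 rose (17.6% called, median log2 difference -0.09). The gene that rose was Tnfrsf11a, which encodes RANK, the receptor for the osteoclast cytokine RANKL: 16.1 ± 3.38 and 22.8 ± 2.8 FPKM, groups overlapping (log2 0.49 ± 0.12, adjusted p = 0.0334; 0.218 with the covariate), and not past the test in the same 6 omissions (0.0849 to 0.117). Ctsk, the osteoclast protease cathepsin K, was at 17.1 ± 4.47 and 12.3 ± 2.57 FPKM (adjusted p = 0.31). The list therefore did not move as one, and without wild-type library 3 its fallen members numbered 4.

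Npl, the lyase that breaks down free sialic acid, fell from 29.0, 27.0, 45.5 and 33.1 FPKM to 5.47, 6.56, 4.51 and 4.06 FPKM (log2 -2.48 ± 0.17, adjusted p = 8.83e-07). Its slope on the collagen score was negative, and with the covariate the difference was -2.76. It was the 1 gene called among 16 for sialic acid metabolism (6.25%). Fblim1 encodes migfilin, a linker of filamin to cell-matrix adhesions, and fell from 56.9, 52.2, 65.2 and 53.1 FPKM to 13.3, 14.9, 10.9 and 9.19 FPKM (log2 -2.16 ± 0.17, adjusted p = 3.06e-06). Nab1, a co-repressor of EGR transcription factors, fell from 9.34, 11.3, 15.6 and 10.6 FPKM to 2.35, 2.13, 2.94 and 2.07 FPKM (log2 -1.90 ± 0.14, adjusted p = 2.27e-06). For these 3 genes wild-type library 3, the wild-type library with least collagen RNA, had the highest value. Whether collagen-rich cells bear on these falls was not tested beyond the covariate.

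Further falls were Pdpn, which encodes the mucin-like membrane protein podoplanin, from 20.8, 12.9, 8.99 and 20.4 FPKM to 6.1, 4.55, 4.53 and 3.93 FPKM (log2 -1.48 ± 0.26, adjusted p = 0.00447; -1.11 and 0.0297 with the covariate). Arrdc3, an alpha-arrestin, fell from 11.8 ± 1.83 to 4.16 ± 1.91 FPKM (log2 -1.38 ± 0.23, adjusted p = 0.00314). Ypel3, of the yippee-like family, fell from 62.9 ± 9.84 to 23.9 ± 2.79 FPKM (log2 -1.35 ± 0.12, adjusted p = 1.32e-05), and the collagen-modifying enzyme gene Plod1 fell from 38.9 ± 5.3 to 15.5 ± 2.02 FPKM (log2 -1.27 ± 0.11, adjusted p = 1.08e-05). These 4 genes passed with the covariate and with each library left out. The zinc finger genes Zfp984 and Zfp949 fell as well: Zfp984 from 3.07 ± 0.777 to 0.122 ± 0.103 FPKM (log2 -1.85 ± 0.15) and Zfp949 from 5.21 ± 0.543 to 1.44 ± 0.235 FPKM (log2 -1.35 ± 0.12). A pair of short genes completes the rule for the largest falls. Ighv7-1, an immunoglobulin heavy chain segment, was at 1.71, 6.99, 1.59 and 13.7 FPKM and then 0, 0, 0 and 0.285 FPKM (adjusted p = 0.0257; 0.134 with the covariate), and Snord65, which overlaps 2410006H16Rik, at 1.99 ± 0.461 and 0.18 ± 0.359 FPKM (adjusted p = 0.033; 0.177 with the covariate). The first call was lost without knockout library 1, 2 or 3 or wild-type library 2 or 4 (0.0646 to 0.0905) and the second in 6 of 8 omissions (0.0662 to 0.1).

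Of 26 genes of insulin and growth factor signalling tested, Igf1r and Irs2 fell and Pik3cg rose (11.5% called, against 4.68% of all genes; median log2 difference -0.04). Igf1r, the receptor for insulin-like growth factor 1, was at 2.53, 2.79, 1.48 and 2.7 FPKM in wild type and 0.418, 0.352, 0.384 and 1.09 FPKM in knockout (log2 -1.12 ± 0.17, adjusted p = 0.00169). Its RNA had a positive slope on the collagen score, with wild-type library 3 lowest and knockout library 4 highest of their groups, and with the covariate the difference was -0.72 (adjusted p = 0.000212). Irs2, the adaptor that couples insulin and cytokine receptors to PI3 kinase, was at 5.43, 5.0, 3.65 and 4.67 FPKM against 2.43, 2.68, 2.11 and 1.48 FPKM (log2 -0.85 ± 0.12, adjusted p = 0.00121; -0.84 with the covariate). Pik3cg, the catalytic PI3 kinase subunit p110 gamma, rose from 10.1 ± 2.18 to 15.0 ± 1.26 FPKM (log2 0.54 ± 0.11, adjusted p = 0.0106; 0.0725 with the covariate).

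The list of 32 genes known as FOXO targets had 5 members higher and 4 lower in knockout (28.1% called, median log2 difference -0.16, against 4.68% and 0.04 over all genes). With the covariate 2 rose and 2 fell, and with single libraries left out the number higher was 1 without knockout library 1 and 2 without knockout library 3 or wild-type library 1, 2 or 4, while the number lower was 7 without wild-type library 3 and 2 without knockout library 3 or wild-type library 1, 2 or 4. The cell cycle inhibitor Cdkn1b fell from 10.6, 10.5, 9.83 and 9.35 FPKM to 6.86, 6.55, 7.5 and 8.96 FPKM (log2 -0.39 ± 0.08, adjusted p = 0.0114; 0.0673 with the covariate). Ccng2, the cyclin G2 of arrested cells, fell from 6.05 ± 0.302 to 4.73 ± 0.314 FPKM (log2 -0.30 ± 0.06, adjusted p = 0.00857; 0.053 with the covariate). The inhibitor Cdkn1a, which encodes p21, moved the other way, from 80.6, 77.0, 64.3 and 76.2 FPKM to 112, 106, 90.2 and 96.3 FPKM (log2 0.44 ± 0.09, adjusted p = 0.0149; 0.00557 with the covariate, 0.054 without knockout library 1). Trib1, a pseudokinase, rose from 3.87 ± 0.216 to 5.97 ± 0.381 FPKM (log2 0.52 ± 0.08, adjusted p = 0.00193).

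The remaining called FOXO targets were outside the rule for named genes and are given here after their values were seen. Gadd45a, a stress-induced regulator of growth arrest, fell from 25.8 ± 5.34 to 12.7 ± 6.2 FPKM (log2 -1.08 ± 0.28, adjusted p = 0.0415), and the ubiquitin ligase gene Fbxo32 from 2.56 ± 0.648 to 1.2 ± 0.479 FPKM (log2 -0.70 ± 0.16, adjusted p = 0.0213). Pik3r1, the regulatory PI3 kinase subunit, rose from 10.2 ± 0.716 to 13.0 ± 1.55 FPKM, and Sesn1, a stress-induced inhibitor of mTORC1, from 64.7 ± 12.9 to 91.3 ± 10.9 FPKM. These 4 calls and that of Prdx3 each failed when some single libraries were left out (4 of 8 for Gadd45a, 5 for Fbxo32, Pik3r1 and Sesn1, 6 for Prdx3), and of the 5 only Gadd45a also passed with the covariate (adjusted p = 0.0431). The antioxidant enzyme gene Sod2 was at 7.3 ± 0.522 and 8.31 ± 0.874 FPKM (adjusted p = 0.212), and the autophagy kinase genes Ulk1 and Ulk2 did not pass (adjusted p = 0.4 and 0.0626). Targets of this list therefore differed in both directions, and 23 of 32 did not pass.

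The forkhead sequence was searched in promoters of 300 bases, from 250 before to 50 after each annotated gene start (RefSeq, GRCm38.p6). GTAAACA or its reverse complement TGTTTAC was present in 3.65% of all 32851 promoters and in 3.06% of the 8599 tested genes that had one. The shares were 10.8% (12 of 111) for called genes lower in knockout and 4.46% (14 of 314) for those higher. Among genes called with and without the covariate it was present in 11.6% of those lower (8 of 69) and in 3.88% of those higher (4 of 103). No test was made of these shares, and a match is a stretch of letters and not a measured binding site. The 4 higher genes included Nfatc2, Swap70 and Gpr180, each with a match before the gene start and outside annotated exons. They rose by 0.91, 0.45 and 0.34 on the log2 scale (limma adjusted p = 0.00247, 0.00121 and 0.0241). The 8 lower genes were Casp4, Cnrip1, Gsap, Mthfs, Mxi1, Pdpn, Tprgl and Ypel3. Windows of 67 bases are shown for the 4 of them whose window lies outside annotated exons, with the forkhead letters in capitals, to show what surrounds the match.
Pdpn, chr4:143299681-143299747, minus strand: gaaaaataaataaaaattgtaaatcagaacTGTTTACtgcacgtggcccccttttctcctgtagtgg
Tprgl, chr4:154160859-154160925, minus strand: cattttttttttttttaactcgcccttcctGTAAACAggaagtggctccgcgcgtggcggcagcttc
Gsap, chr5:21176053-21176119, plus strand: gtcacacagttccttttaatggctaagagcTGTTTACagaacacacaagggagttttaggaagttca
Casp4, chr9:5308610-5308676, plus strand: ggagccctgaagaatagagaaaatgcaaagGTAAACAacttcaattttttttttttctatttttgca
The match starts 153 bases before the gene start in Pdpn, 211 in Tprgl, 196 in Gsap and 209 or 220 in Casp4, which has a pair of annotated starts. Except for Pdpn and Ypel3 these genes were outside the rule for named genes. Mxi1, an antagonist of MYC, fell from 5.95, 5.47, 5.72 and 5.5 FPKM to 3.16, 3.04, 3.54 and 2.65 FPKM (log2 -0.70 ± 0.09, adjusted p = 0.000253). Tprgl fell from 55.6 ± 5.56 to 37.2 ± 3.13 FPKM (log2 -0.56 ± 0.08, adjusted p = 0.000676). Casp4, the inflammatory caspase that senses cytosolic lipopolysaccharide, fell from 6.11 ± 3.14 to 1.86 ± 0.684 FPKM (log2 -1.26 ± 0.31, adjusted p = 0.0325), a call that 4 of 8 omissions of a library ended.

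Of 19 macrophage lineage genes, 2 were higher and none lower (10.5% called, against 4.68% of all genes; median log2 difference 0.14). An unadjusted p under 0.05 was reached by 7 higher and 0 lower, where 21.7% of all genes reach it in either direction. Adgre1, which encodes the macrophage marker F4/80, was at 529, 554, 788 and 591 FPKM in wild type and 1212, 1189, 1503 and 1225 FPKM in knockout (log2 1.07 ± 0.21, adjusted p = 0.0101). Its groups were separate, its slope on the collagen score was negative, and with the covariate the difference was 0.73 (adjusted p = 0.0633). Aif1 (IBA1) rose from 44.4 ± 4.9 to 69.9 ± 6.99 FPKM (log2 0.64 ± 0.17, adjusted p = 0.045; 0.222 with the covariate), and did not pass in 7 of 8 omissions, all but that of wild-type library 3 (0.0523 to 0.143). Csf1r was at 590 ± 86.3 and 608 ± 104 FPKM (adjusted p = 0.88), and Spi1, which encodes the lineage factor PU.1, at 152 ± 6.8 and 200.9 ± 23.9 FPKM (adjusted p = 0.0658).

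Siglecs and inhibitory receptors had 4 of 18 members higher and 1 lower (27.8% called, median 0.20). With the covariate 4 were higher and 3 lower. Cd300lf, the 1 gene lower, was no longer called in 5 of 8 omissions. Beside Siglece and Cd72 these were Clec4a2, the dendritic cell immunoreceptor, from 20.6, 23.2, 48.4 and 28.7 FPKM to 60.4, 62.1, 82.9 and 53.6 FPKM (log2 1.13 ± 0.22, adjusted p = 0.00858; 0.72 and 0.0374 with the covariate), and Ptpn6, the phosphatase SHP-1 that such receptors recruit, from 118 ± 17.6 to 178 ± 22.1 FPKM (log2 0.59 ± 0.14, adjusted p = 0.0241; 0.145 with the covariate, and 0.065 to 0.0881 without knockout library 2 or 3 or wild-type library 1, 2 or 4). The related lectin genes Clec4a1, Clec4a3 and Clec4b1 of chromosome 6, looked at after their values were seen, rose by log2 differences of 1.05, 1.16 and 1.23 (adjusted p = 0.00109, 0.00693 and 0.00172) and passed with the covariate too. Siglec1, the sialoadhesin gene, was at 51.4, 61.3, 37.8 and 56.1 FPKM and 51.5, 57.0, 54.1 and 121 FPKM (adjusted p = 0.351), with knockout library 4 alone high. It passed in the fit with the covariate (log2 0.81, adjusted p = 0.0291).

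Fc receptor and complement genes had 3 of 18 members higher and none lower (16.7% called, median 0.15; unadjusted p under 0.05 for 7 higher and 2 lower, against 21.7% of all genes). Fcgr4, an activating IgG receptor, rose from 37.5 ± 6.73 to 58.5 ± 7.08 FPKM (log2 0.64 ± 0.13, adjusted p = 0.0121; 0.038 with the covariate). Fcer1g, the signalling chain that activating receptors share, rose from 656 ± 54.5 to 857 ± 40.0 FPKM (log2 0.39 ± 0.10, adjusted p = 0.0349; 0.224 with the covariate), a call lost in 6 of 8 omissions, all but those of wild-type library 3 and knockout library 4 (0.0862 to 0.112). The inhibitory receptor gene Fcgr2b was at 26.4, 26.4, 38.3 and 33.4 FPKM in wild type and 19.1, 22.8, 18.8 and 13.9 FPKM in knockout. It did not pass (log2 -0.71, adjusted p = 0.0898) except with the covariate (-1.13, adjusted p = 0.00394). Fcgr1 was at 54.9 ± 6.51 and 62.7 ± 16.1 FPKM (adjusted p = 0.592).

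Interferon response genes had 7 of 37 members higher and none lower (18.9% called, median log2 difference 0.31, against 4.68% and 0.04 over all genes; unadjusted p under 0.05 for 18 higher and 0 lower, against 21.7% of all genes). Irf7, the master regulator of type I interferon, was at 15.3, 16.7, 16.1 and 10.97 FPKM in wild type and 22.1, 44.6, 42.5 and 28.9 FPKM in knockout (log2 1.14 ± 0.23, adjusted p = 0.0106; 0.0687 with the covariate). The groups were separate, and knockout libraries 2 and 3, those with least collagen RNA, were highest. Ddx58, the RNA sensor RIG-I, rose from 9.87 ± 1.04 to 15.1 ± 2.36 FPKM (log2 0.56 ± 0.10, adjusted p = 0.00408; 0.0304 with the covariate), and Ifi44 from 0.711 ± 0.21 to 1.65 ± 0.304 FPKM (log2 0.63 ± 0.12, adjusted p = 0.00556; 0.0394 with the covariate). Oasl1 (log2 0.92, adjusted p = 0.0155) and Bst2, the virus-tethering protein tetherin (log2 0.57, adjusted p = 0.0297), rose but did not pass with the covariate (0.1 and 0.195). Oasl1 was lost without knockout library 3 (0.0606) or wild-type library 1 (0.0553) or 4 (0.0578), and Bst2 without knockout library 2 or 3 or wild-type library 1, 2 or 4 (0.0503 to 0.0966). Oasl2 and Xaf1, outside the rule, passed neither with the covariate nor in 5 of 8 omissions each. The count was 2 with the covariate and 0 in a fit of the 8 vehicle libraries alone. It was 13 without knockout library 4, 4 without knockout library 2, and 3 without knockout library 3, wild-type library 1 or wild-type library 4.

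Inflammatory and Toll-like receptor genes each had 3 of 20 members higher and none lower (15% called in each list, medians 0.15 and 0.21; unadjusted p under 0.05 for 6 and 7 higher and for 0 lower, against 21.7% of all genes). Il10, the anti-inflammatory cytokine, was at 1.51, 1.77, 3.05 and 1.58 FPKM against 4.25, 4.01, 5.63 and 5.85 FPKM (log2 1.01 ± 0.15, adjusted p = 0.00103; 0.00728 with the covariate). Nfkbiz, a nuclear IkB protein, was at 6.93, 7.81, 8.32 and 6.45 FPKM against 12.7, 11.8, 16.5 and 17.0 FPKM (log2 0.88 ± 0.11, adjusted p = 0.000304; 0.00156 with the covariate). Both had separate groups. The adhesion molecule gene Icam1 rose from 23.4 ± 2.19 to 40.7 ± 5.92 FPKM (log2 0.76 ± 0.15, adjusted p = 0.00929; 0.0614 with the covariate). Tnf was at 6.37 ± 0.929 and 7.8 ± 1.4 FPKM (adjusted p = 0.377). In the receptor pathway, Irak3, a brake on signalling, rose from 7.39 ± 0.798 to 11.01 ± 0.703 FPKM (log2 0.52 ± 0.07, adjusted p = 0.000792), Tlr9, the sensor of unmethylated DNA, from 15.6 ± 2.33 to 26.7 ± 4.47 FPKM (log2 0.73 ± 0.16, adjusted p = 0.0151; 0.052 without wild-type library 1), and the adaptor gene Myd88 from 26.5 ± 3.5 to 35.7 ± 3.13 FPKM (log2 0.42 ± 0.10, adjusted p = 0.023; 0.159 with the covariate, and 0.0509 to 0.088 without any of knockout libraries 1 to 3 or wild-type library 1 or 2). The count of risen genes in this pathway was 1 without wild-type library 1 and 5 without wild-type library 3.

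Chemokine genes went both ways: of 19, 2 rose, Pf4 among them, and Ccl6 fell (15.8% called, median -0.16). Ccl6, a macrophage chemokine, was at 365, 337, 279 and 365 FPKM in wild type and 212, 202, 196 and 198 FPKM in knockout (log2 -0.73 ± 0.10, adjusted p = 0.000792; -0.62 with the covariate). Ccl2, which fibroblasts also make, was at 33.0, 36.2, 10.7 and 26.8 FPKM and 8.11, 4.4, 5.26 and 20.4 FPKM, followed the collagen score with a positive slope, and did not pass (adjusted p = 0.196). Of 25 phagocytic and scavenger receptors, Marco rose and Clec7a, the beta-glucan receptor dectin-1, fell (8% called). Marco was at 5.3, 6.96, 19.4 and 10.6 FPKM against 42.8, 39.5, 70.8 and 32.6 FPKM, the groups apart (log2 2.12 ± 0.48, adjusted p = 0.02). It did not pass with the covariate (adjusted p = 0.129), nor without knockout library 3 (0.074), wild-type library 1 (0.077) or wild-type library 2 (0.071). Axl, a receptor for apoptotic cells, was at 46.9, 46.1, 17.4 and 44.1 FPKM and 12.3, 9.47, 3.31 and 26.03 FPKM, again in step with the collagen score (adjusted p = 0.118; 0.631 with the covariate).

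**Figure D3:**
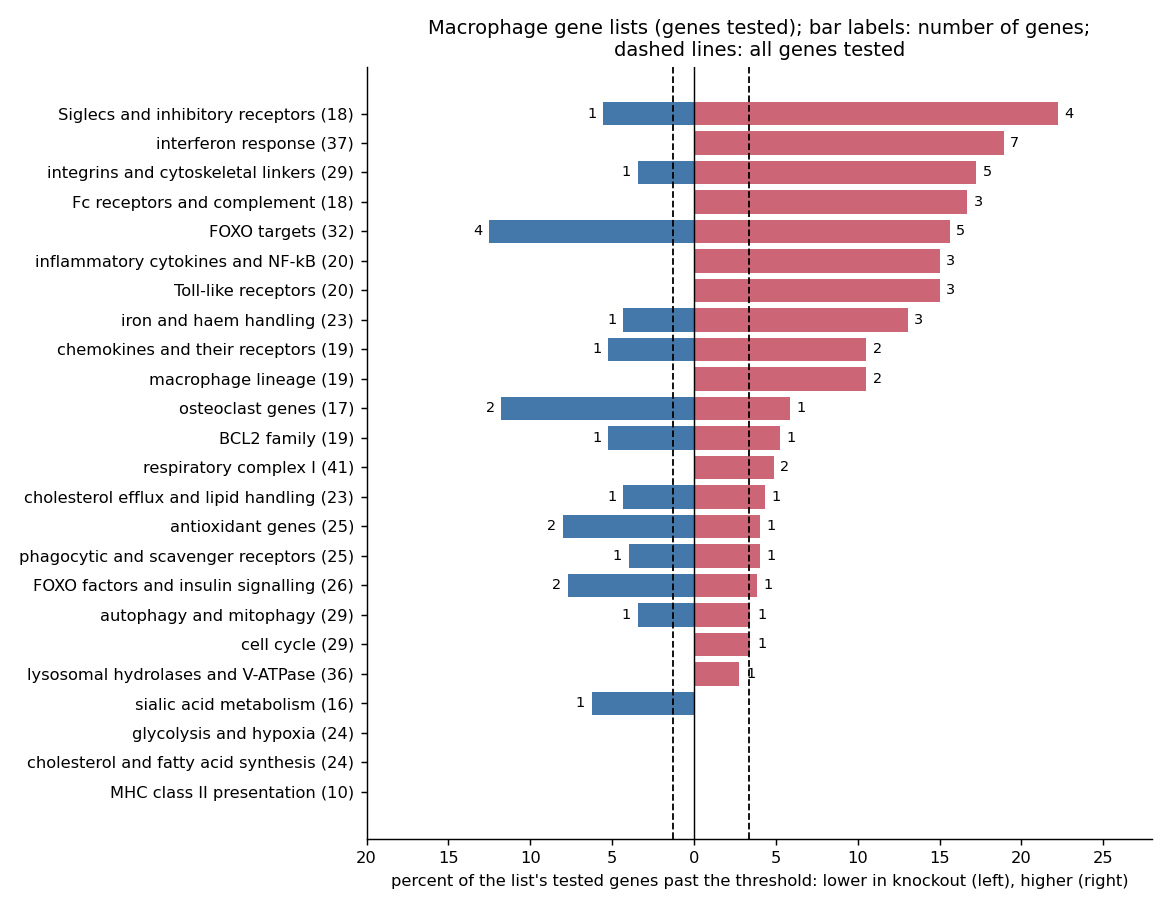
Percent of each macrophage list's tested genes (number in brackets) that passed the test in vehicle, lower in knockout to the left and higher to the right, with the number of genes at each bar; dashed lines mark 1.3% lower and 3.37% higher over all genes tested. Siglecs and inhibitory receptors (4 of 18) and interferon genes (7 of 37) have the longest bars to the right, and 3 lists have no call.

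Integrin and cytoskeletal genes had 5 of 29 members higher and 1, Fblim1, lower (20.7% called, median 0.14). The number higher was 10 without knockout library 4, 9 without wild-type library 3 and 3 without knockout library 2 or 3 or wild-type library 1, 2 or 4. Beside Itgal and Icam1, Lcp1, the actin-bundling protein of leukocytes, rose from 170 ± 21.5 to 241 ± 13.2 FPKM (log2 0.51 ± 0.08, adjusted p = 0.00172; 0.0102 with the covariate). Antioxidant genes had 2 of 25 lower and 1 higher (12% called). Gsr, glutathione reductase, fell from 27.8, 25.0, 25.2 and 28.8 FPKM to 15.97, 18.6, 16.3 and 15.4 FPKM (log2 -0.66 ± 0.10, adjusted p = 0.00161; -0.71 with the covariate). Gpx3, the secreted glutathione peroxidase, was at 56.9, 63.9, 31.5 and 68.2 FPKM against 22.7, 13.9, 8.32 and 26.8 FPKM (log2 -1.63 ± 0.34, adjusted p = 0.0132). Its slope on the collagen score was positive, and with the covariate the fall was 0.95 on the log2 scale (adjusted p = 0.0494). Pink1, the kinase that starts mitophagy, fell from 36.3 ± 4.02 to 24.7 ± 1.63 FPKM (log2 -0.53 ± 0.10, adjusted p = 0.00869), and Mcm3, a subunit of the replicative helicase, rose from 14.6 ± 2.24 to 22.0 ± 1.93 FPKM (log2 0.57 ± 0.10, adjusted p = 0.00314). Of 29 autophagy genes, Pink1 alone fell and Atg4b alone rose (6.9% called, against 4.68% of all genes). Mcm3 was the 1 gene called among 29 of the cell cycle (3.45%, against the same 4.68%). Without wild-type library 3, 6 autophagy genes fell and 9 cell cycle genes rose, and 3 autophagy genes fell without knockout library 2.

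Lists without a call were MHC class II presentation (10 genes), glycolysis and hypoxia (24) and cholesterol and fatty acid synthesis (24), by limma on log2(FPKM + 1) and by limma voom on recovered reads. At an unadjusted p under 0.05, 1 class II gene was higher, 1 glycolysis gene was higher and 1 lower, and 19 genes of cholesterol and fatty acid synthesis were higher, against 21.7% of all genes in either direction. The last list had a median log2 difference of 0.51, above the 0.04 of all genes, and of 0.27 with the covariate. The number of its genes that passed was 18 without knockout library 4 and 14 without wild-type library 3, the libraries that stood apart in collagen RNA, and 0 when any other single library was left out. Srebf2, the regulator of sterol synthesis, shows the pattern: 26.1, 27.0, 35.7 and 28.03 FPKM in wild type and 40.2, 49.9, 44.6 and 26.9 FPKM in knockout (log2 0.43 ± 0.15, adjusted p = 0.115), with a negative slope on the score. Whether the part of collagen-rich cells in these libraries bears on it was not tested beyond the covariate.

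Fibroblast genes are given apart from the macrophage genes. Col1a1 was at 127, 124, 6.77 and 174 FPKM in wild type and 4.76, 0.506, 0.395 and 95.8 FPKM in knockout (log2 -3.54 ± 1.43, adjusted p = 0.176). The groups overlapped, with 1 low library in wild type and 1 high library in knockout. Of 32 fibroblast and matrix genes tested (36 listed), none was called lower (limma and limma voom; 20 at an unadjusted p under 0.05). Without the 3 genes of the score, whose slope the score itself fixes, 26 of the other 29 had a positive slope, and their median log2 difference was -2.18, or 0.14 with the covariate. The count of lower genes was 16 without wild-type library 3, 19 without knockout library 4 and 27 without both. The summed level of the 36 genes lay between 961 and 2181 FPKM in wild type (median 2127) and between 873 and 1744 FPKM in knockout (median 970). Knockout library 3 had the lowest sum, with Col1a1 at 0.395, Col1a2 at 0.436 and Col3a1 at 0.182 FPKM. Other listed genes thus made up nearly all of its 873 FPKM, and the sum is not a measure of collagen RNA. Tgfbi, which macrophages also make and whose slope was negative, was the 1 gene called: it rose from 14.1 ± 2.81 to 25.6 ± 4.31 FPKM (log2 0.82 ± 0.17, adjusted p = 0.0133; 0.0786 with the covariate), and not without knockout library 3 (0.052) or wild-type library 2 (0.0517).

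Smooth muscle genes followed the collagens (7 tested, each with a positive slope, median log2 difference -1.85, 0.22 with the covariate). Acta2, smooth muscle actin, was at 33.9, 45.3, 2.7 and 64.8 FPKM and 1.99, 0.779, 0.614 and 54.0 FPKM (adjusted p = 0.251). The 10 endothelial genes summed to 42.4 to 56.0 FPKM in wild type and 30.0 to 41.1 FPKM in knockout, with Cdh5 at most 5.64 FPKM, and the 8 fat cell genes to 28.6 to 54.6 and 26.1 to 46.5 FPKM, with Adipoq at most 2.14 FPKM. Summed fat cell genes were highest in wild-type library 3, and Adipoq in knockout library 4. H19, an imprinted RNA of mesenchymal cells chosen after its values were seen, was at 71.3, 68.7, 3.53 and 51.8 FPKM against 0.118, 0, 0 and 19.9 FPKM (log2 -3.91 ± 1.10, adjusted p = 0.0567). Called genes with a positive slope that a macrophage list does not hold were led by AI506816, a non-coding transcript that rose from 0.0755, 0.145, 0.0388 and 0.0136 FPKM to 8.18, 8.06, 6.88 and 14.3 FPKM (log2 3.23 ± 0.22, adjusted p = 8.16e-07), against the direction of the collagens. Pilrb2, Cgnl1 and Lsp1 fell by 1.48, 1.10 and 1.06 on the log2 scale, their groups overlapping, and Lsp1 passed neither with the covariate (adjusted p = 0.179) nor without knockout library 2 or 3 or wild-type library 1, 2 or 4 (0.0645 to 0.101).

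**Figure D4:**
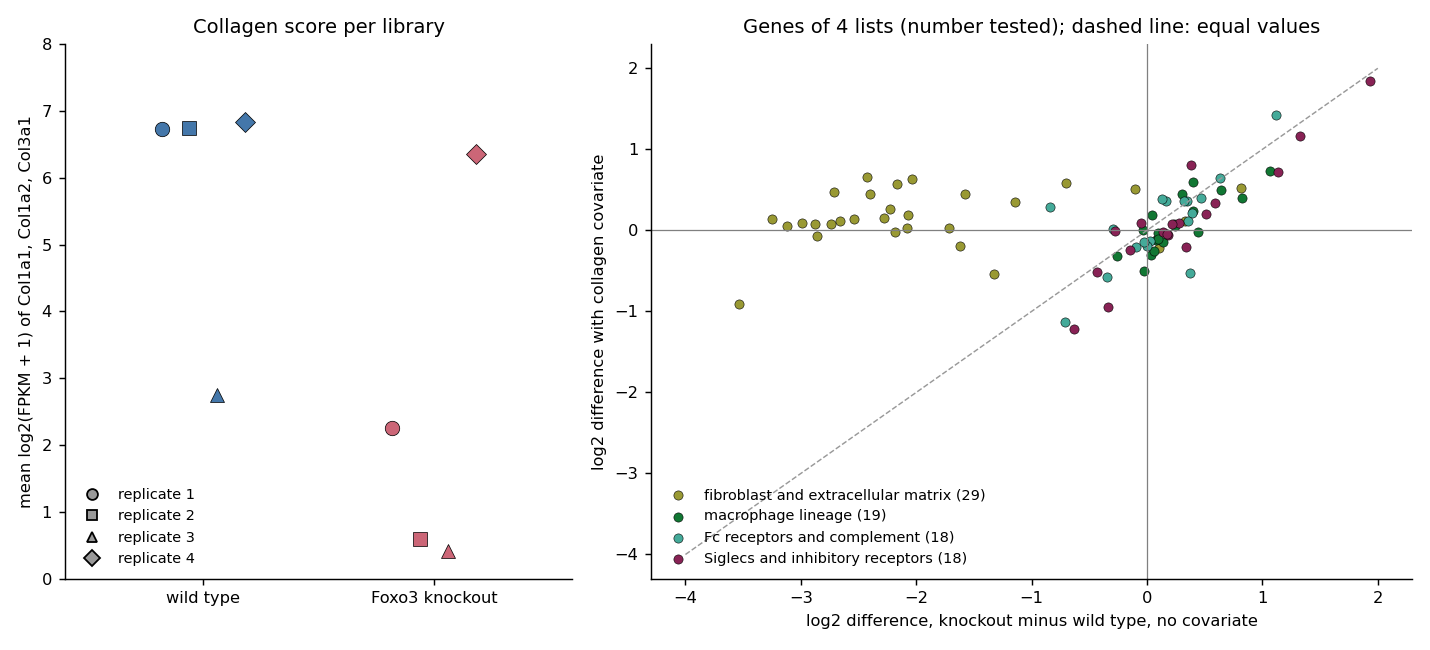
Left, the collagen score of each vehicle library, in which wild-type replicate 3 (2.76) and knockout replicate 4 (6.36) lie apart from their groups. Right, log2 difference between knockout and wild type for genes of 4 lists without the covariate (x axis) and with it (y axis). The dashed line marks equal values. The 29 fibroblast genes outside the score move from a median of -2.18 to 0.14. Macrophage list medians move from 0.14 to 0.008 (lineage), 0.20 to 0.04 (Siglecs and inhibitory receptors) and 0.15 to 0.17 (Fc receptors and complement).

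Libraries of the whole series can also be compared within 2 ranges of Col1a1. Under 50 FPKM, vehicle leaves wild-type library 3 against knockout libraries 1 to 3, and 60 genes passed. At 50 FPKM or above it leaves wild-type libraries 1, 2 and 4 against knockout library 4, and 202 genes passed. In each range 1 genotype has a single vehicle library, which is assumed to vary like the other groups of the fit. In both ranges 30 genes passed in the same direction (50% of the 60 and 14.9% of the 202), 13 higher and 17 lower. These ranges reuse the libraries of the 545 calls and are no independent support for them. Higher in both were, among others, the named genes Ndufs5, Angptl7, Bcl2a1d and AI506816, and lower were BC002163, Npl, Fblim1, Acp5, Nab1, Ypel3, Plod1 and Zfp984. Others, seen after the fact, were Tm4sf19, a tetraspanin-related gene of macrophages, at 4.93, 4.68, 10.9 and 6.38 FPKM against 44.3, 44.7, 46.2 and 19.4 FPKM (log2 2.35 ± 0.29, adjusted p = 0.000282; 1.75 with the covariate), and Tnfrsf13b, the receptor TACI, at 10.5 ± 0.284 against 18.4 ± 1.38 FPKM (log2 0.75 ± 0.06, adjusted p = 4.45e-06). Serinc3, a membrane protein that restricts retroviruses, was lower in both (238 ± 23.7 and 120 ± 5.55 FPKM, log2 -0.98 ± 0.09, adjusted p = 1.08e-05).

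Called genes were unevenly spread along the chromosomes. Within 5 Mb of Foxo3 on chromosome 10, 2 of 39 genes tested were called, Snx3 and Sesn1 (5.13%), and within 10 Mb 3 of 53 (5.66%, with Dse), near the 4.68% of all genes. None of the 3 passed with the covariate (adjusted p = 0.111, 0.15 and 0.175). Segments of 10 Mb were looked at after their values were seen, ordered by the share of genes called in both fits. The first in that order, 80 to 90 Mb of chromosome 18, held 4 called genes of 22 (18.2%). The next, 140 to 150 Mb of chromosome 4, held the most genes: 14 of 74 genes were called (18.9%), and 13 passed with and without the covariate, against a median of 1.12% of genes over 211 segments of 10 Mb with at least 20 tested genes. Among the 13 are Arhgef10l, Fblim1, Tmem51, Pdpn, Dhrs3, Znf41-ps, Zfp991, Zfp984, Plod1, Clcn6, Fbxo44 and Angptl7. Of the 13, 5 were higher and 8 lower in knockout, and 5 are among the named largest changes above. Chosen after its values were seen, Fbxo44 fell from 1.41 ± 0.15 to 0.0862 ± 0.0774 FPKM (log2 -1.15 ± 0.11, adjusted p = 1.77e-05). The third, 80 to 90 Mb of chromosome 9, held 5 of 30 called genes, Zfp949, Bcl2a1b, Bcl2a1d, Gm37614 and Mthfs, all 5 called in both fits, and the next, 160 to 170 Mb of chromosome 2, held 12 called genes of 72, 7 of them in both fits. The labels do not say how the knockout was bred into FVB/N, and what the position of these genes has to do with it was not tested.

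The genotypes were also compared under dexamethasone. Those libraries are other samples, but they share the gene filter and the estimate of the spread with the vehicle comparison. Their collagen scores were 7.71, 6.87, 7.58 and 3.73 in wild type and 1.03, 0.97, 3.46 and 4.01 in knockout. Collagen RNA was thus again mostly lower in knockout. The counts here are from the fit without the covariate, and the part that collagen-rich cells have in them was not tested. Under dexamethasone 3114 genes passed (26.7%, with 14.3% higher and 12.4% lower in knockout). Of the 545 vehicle calls, 383 passed under dexamethasone in the same direction (70.3% of the 545 and 12.3% of the 3114), and 2 in the opposite direction. Ndufs5 and Angptl7 differed by 3.46 and 3.77 on the log2 scale under dexamethasone, BC002163 by -4.65, Fblim1 by -2.26, Npl by -2.28 and Igf1r by -1.63. The difference between both genotype differences passed its own test for 15 genes (0.129%), 5 of them called in vehicle.

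Acp5 was the largest of these among genes that fell in vehicle. Its fall in vehicle was 2.03 on the log2 scale, against 0.57 under dexamethasone, where wild type had 29.9 ± 6.39 and knockout 19.5 ± 1.45 FPKM (interaction log2 -1.46 ± 0.24, adjusted p = 0.0394). Clec7a and Slc11a2 changed direction: Clec7a was lower in knockout in vehicle (27.2 ± 4.26 and 18.6 ± 2.65 FPKM) and higher under dexamethasone (3.49 ± 0.554 and 5.61 ± 0.742 FPKM; interaction adjusted p = 0.0394), and Slc11a2 was higher in vehicle and lower under dexamethasone (13.2 ± 1.48 and 10.7 ± 0.396 FPKM; interaction adjusted p = 0.0431). The vehicle call of Clec7a did not hold without knockout library 2 (adjusted p = 0.075), knockout library 3 (0.056) or wild-type library 4 (0.11). Serinc3 and Rab15, outside the rule for named genes, fell in vehicle by 0.98 and 0.47 and under dexamethasone by 2.14 and 1.61 on the log2 scale (interaction adjusted p = 0.0016 and 0.032). With a replicate block 1 gene passed the interaction test in place of 15, and with the covariate 102 genes passed.

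**Figure D5:**
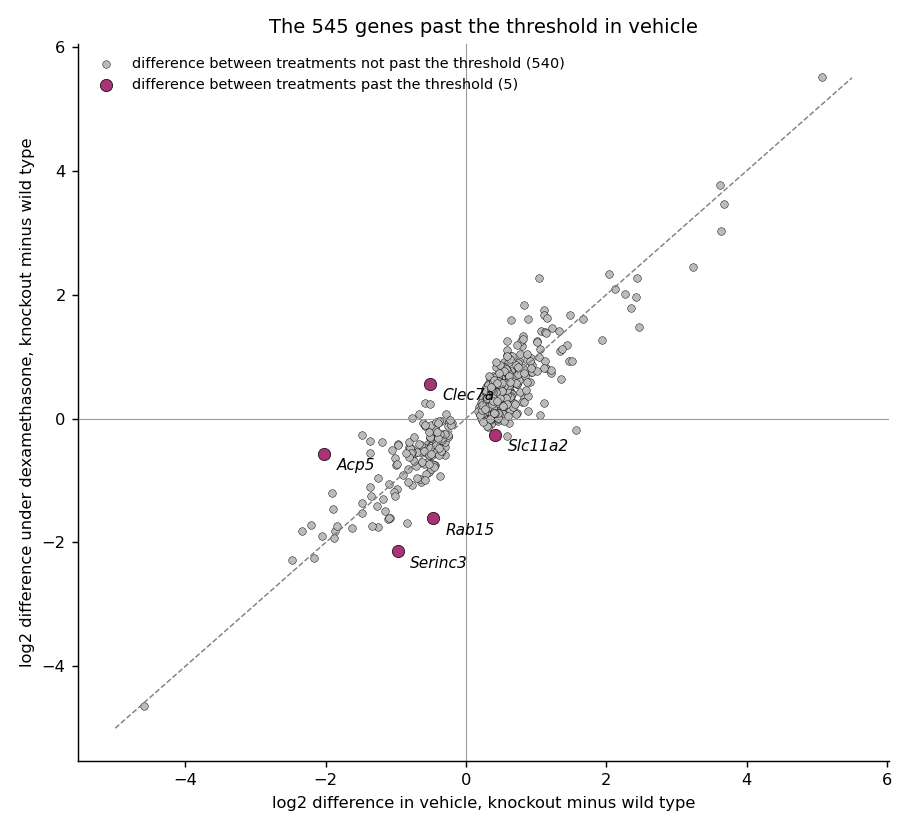
Log2 difference between knockout and wild type for the 545 genes called in vehicle, in vehicle (x axis) and under dexamethasone (y axis), with equal values on the dashed line. The 5 genes whose differences differ between the treatments are drawn large: Acp5, Serinc3 and Rab15 stay on the same side of 0, while Clec7a and Slc11a2 change sides.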

How the data were processed

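RNA sequencing of 16 libraries gave 1 table of FPKM values per library, which the authors deposited with 54532 Ensembl gene identifiers. Per the submitters' processing notes, the tools were TopHat2 2.0.12, Bowtie2 2.2.3, DESeq2 and HTSeq 0.6.1, and the build GRCm38, also written mm10. Their roles, the annotation used and any strand setting are not stated there. Names and positions came from GENCODE M21 (GRCm38), which held 54495 identifiers; promoter sequences came from RefSeq (GRCm38.p6). No pair of libraries was identical.

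The 11654 genes that reached 1 FPKM in 4 or more of the 16 libraries were tested as log2(FPKM + 1), with a pseudocount of 1 FPKM, which understates the change of low genes. limma 3.58.1 under R 4.3.3, with moderated variances and a trend on intensity, was fitted to all 16 libraries with 4 group means, so that the groups share one estimate of the spread. Two-sided p-values were adjusted over all genes (Benjamini-Hochberg, threshold 0.05). The fit was repeated with the mean log2(FPKM + 1) of Col1a1, Col1a2 and Col3a1 as covariate; counts from that fit leave these 3 genes out. The interaction is the vehicle difference minus the dexamethasone difference. Whole reads were recovered from FPKM and exon lengths; in each of the 16 libraries 96.3 to 96.7% of positive values were whole within 0.05 reads. Counting error is covered only through the spread between libraries. On simulated data the vehicle comparison recovered 94 of 100 genes shifted by 1 and 96 of 100 shifted by 2 on the log2 scale. Whether such recovery holds for the measured libraries, in which single libraries moved the number of calls, was not tested.

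The members and the 37 gene lists (24 of macrophage genes) were chosen with earlier results of these data known, so list counts are descriptions. Named by rule were the FOXO factors, the 14 largest rises and 14 largest falls among called genes without overlap of the groups and without a slope on the collagen score (unnamed and predicted genes skipped), the 6 largest changes among called genes with a positive slope, from each list up to 4 called members and its first 2 measured ones, and the collagens: 141 genes, of which those that carry a result are given. Some genes that the rule names are not reported here. Alternatives were other pseudocounts, filters, scaling and weights, voom on recovered reads, the vehicle libraries alone, ranges of Col1a1, a replicate block and each library left out. Omission of wild-type library 3 and knockout library 4 together was added after the data were seen. Python 3.11.15, numpy 2.4.6, pandas 2.3.3 and matplotlib 3.10.9 were used for the other steps.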

Additional observations from a re-analysis of the deposited data

Results flagged for a closer look

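The wild-type and the knockout vehicle group of each of the 141 named genes were searched, and chance flags about 1 in 20 groups. In 32 cases 1 library lay far from the other 3 of its genotype, by the ratio of its gap to the range of the group. Of these, 17 concern knockout library 4 and 11 wild-type library 3, the libraries that stood apart in collagen RNA, so they are not independent of each other. The cause was not tested.

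In wild-type library 3 the low values were those of Col1a1 (6.77 FPKM), Col1a2 (4.63), Col3a1 (6.06), Axl (17.4), Pilrb2 (3.25), Igf1r (1.48), Pink1 (30.3) and Angptl7 (0.242 FPKM). Its high values were Itgam (39.5 FPKM), Nr1h3 (30.4) and Pik3cg (13.4 FPKM), each nearer to the knockout than the other wild-type libraries were.

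In knockout library 4 genes of stromal, endothelial and fat cells were high: Myl9 (20.8 FPKM), Cdh5 (3.30), Alpl (2.68), Adipoq (2.14), Pecam1 (1.40), Ebf1 (1.39) and Plin4 (0.627 FPKM). Also high there were Siglec1 (121 FPKM), Pilrb2 (3.94), Igf1r (1.09), Snord65 (0.719) and Ighv7-1 (0.285 FPKM). Low in that library were Lcp1 (221 FPKM), Prdx3 (39.0), Itgax (11.98), Bcl2a1d (10.4) and Cd79b (2.50 FPKM).

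Single values in other libraries were Pf4 in knockout library 1 (64.7 FPKM, low), Angptl7 in knockout library 2 (13.3 FPKM, low), Adgre1 in knockout library 3 (1503 FPKM, high) and Atg4b in wild-type library 4 (6.77 FPKM, high).

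The genotype difference differed between vehicle and dexamethasone by the interaction test of limma for 4 named genes. The vehicle difference minus the dexamethasone difference was -1.46 for Acp5, -1.08 for Clec7a, 0.68 for Slc11a2 and 0.85 for Bcl2l1 on the log2 scale. Bcl2l1, which encodes the survival factor BCL-XL, did not differ past the test in vehicle (adjusted p = 0.718) and was lower in knockout under dexamethasone (37.1 ± 3.19 and 21.1 ± 1.77 FPKM, SD, n = 4 each, limma adjusted p = 0.000219).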

How the results depend on the processing

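The 545 calls (393 higher, 152 lower, and 79 vehicle genotype calls with a log2 difference of at least 1) had the same direction in each alternative in which they were tested. These alternatives reuse the libraries that made the calls. For 482 of the 545 the groups did not overlap, so leaving out libraries could not change the direction. The numbers of calls moved. With the 8 vehicle libraries alone they were 244, 165 higher and 79 lower. With the collagen covariate they were 337 with 177 higher, and 182 with 111 higher and 71 lower in the 8 vehicle libraries alone. Within ranges of Col1a1 they were 60, 29 higher and 31 lower, under 50 FPKM, of which 39 had a log2 difference of at least 1, and 202, with 93 higher, at 50 FPKM or above. Array weights, which gave wild-type library 3 a weight of 0.248 and knockout library 4 one of 0.3003, called 4840 genes, 3086 higher and 1754 lower, with 652 at the larger size. Without both of these libraries the counts were 3159, 1949, 1210 and 712. With a library left out, calls ran from 278 to 1623, those higher from 176 to 1032, those lower from 97 to 591 and the larger changes from 62 to 307. A filter at 5 FPKM left 97 lower. The larger changes numbered 131 with a pseudocount of 0.1 FPKM, 31 with 5 FPKM and 124 by voom on recovered reads, where 57.2% of all calls were higher in knockout.

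Same-numbered libraries of the genotypes deviated together for some numbers and against each other for others (correlations -0.28, -0.42, 0.73 and 0.53), not every library correlated best with its own number, and the labels tie no number to an animal or day. The replicate block gave 377 calls, 254 higher, and 1 interaction in place of 15, while the collagen covariate gave 102. Of the 79 named genes called, 51 stayed called with the covariate, 71 with the block and 71 by voom. Itgax, which is not called, was reversed at Col1a1 of 50 FPKM or above (log2 -0.80, adjusted p = 0.022, against 0.37). Depth limits short and low genes most, where few reads stand behind a value.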

Other observations

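A second pair of near-identical loci showed a split within the knockout group. Rps3a3, a processed pseudogene of the ribosomal protein gene Rps3a1 on chromosome 13, was at 0.709, 1.02, 0.218 and 0.229 FPKM in wild-type libraries 1 to 4 and at 0.657, 178, 203 and 111 FPKM in knockout libraries 1 to 4. Knockout library 1 was thus at the wild-type level, and knockout libraries 2 to 4 lay far above it. Rps3a1, whose aligned transcript is identical at 786 of 795 bases, ran the other way, at 526, 560, 510 and 554 FPKM in wild type and 492, 170, 144 and 323 FPKM in knockout. The summed reads of both were 526 ± 23.3 CPM in wild type and 374 ± 85.8 in knockout (SD, n = 4 each).

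Pcna-ps2, a pseudogene of Pcna on chromosome 19, had the same pattern: 1.66, 0.773, 2.16 and 0.628 FPKM in wild type and 1.66, 69.1, 64.4 and 46.7 FPKM in knockout, low again in knockout library 1. Under dexamethasone, Rps3a3 was at 227, 214, 112 and 5.07 FPKM and Pcna-ps2 at 26.3, 25.1, 16.5 and 0.881 FPKM in knockout libraries 1 to 4, with library 4 low for both. Rps3a3 was at most 0.797 FPKM and Pcna-ps2 at most 0.734 FPKM in wild type under dexamethasone. In vehicle both passed (limma, log2 5.08 ± 1.34 and 3.64 ± 0.95, adjusted p = 0.0435 and 0.0422), but not with the collagen covariate (adjusted p = 0.183 and 0.201), and each kept its call in 2 of the 8 fits that leave out a library. These genes were chosen after their values were seen, and why 1 knockout library in each treatment differs from the other 3 was not tested.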
